A study of Mus musculus with 36 samples.

Results

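Polyadenylated RNA of mouse embryonic fibroblasts at day 4 of reprogramming was compared between cells kept on the DOT1L inhibitor SGC0946 for the whole 4 days and cells kept on its solvent, DMSO. The members were the libraries whose titles name day 4 with the inhibitor (the full window, 2 libraries) and day 4 without it (control, 2 libraries), 4 of the 36 libraries of the series, and their deposited expected counts were used. Both groups had 4 days of doxycycline. Neighbouring groups served for comparison, each of 2 libraries: day 4 cells with SGC0946 on days 0 to 2 and then DMSO (the early window), day 4 cells with DMSO on days 0 to 2 and then SGC0946 (the mid window), and day 2 cells with doxycycline plus SGC0946 or DMSO. Untreated fibroblasts, also 2 libraries, gave the starting level. All 7 groups shared 1 genotype, a doxycycline-driven cassette at the Col1a1 locus on both alleles, joining Oct4, Klf4, Sox2 and c-Myc through 2A peptides and an IRES, and 1 copy of the reverse tetracycline transactivator at Rosa26, so the controls carried and induced the factors too. The fibroblasts came from embryos at day 13.5 of gestation. Reprogramming cells grew on irradiated feeder fibroblasts in serum medium with leukemia inhibitory factor, so any feeder RNA in the counts could not be set apart. Whether the 2 libraries of a group are separate cultures is not stated. The p-values rest on the spread between libraries of a group, pooled over the 7 groups, and that spread may be technical.

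DOT1L is the methyltransferase that puts methyl groups on a lysine in the core of histone H3, a mark found along the bodies of transcribed genes, and SGC0946 competes with its methyl donor. Reprogramming of fibroblasts passes through a mesenchymal-to-epithelial transition, in which cells take up epithelial junctions and keratins and lose fibroblast identity. E-cadherin, the product of Cdh1, is the adhesion molecule by which that transition is usually followed, and the repressors of the SNAI and ZEB families bind E-boxes in promoters of epithelial genes.

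The 4 libraries held 40012607 and 45975368 expected counts in the full window and 44653171 and 41195782 in the control, and the 14 libraries of the timecourse held between 32883668 and 50866706. Of 20325 genes in the files, 14473 had enough counts to be tested and 5852 did not. The 8 defining fibroblast markers, Col1a1 and Pdgfrb among them, were detected in every library. The summed level of 12 leukocyte genes was 248.4 and 244.3 CPM (counts scaled by TMM to a common library size) in the full window, against 264.0 and 259.0 CPM in the control. The 8 endothelial genes tested summed to 70.5 and 70.9 CPM in the full window, against 67.8 and 69.5 CPM in the control, and the 10 skeletal muscle genes to 8.99 and 8.01 CPM, against 6.77 and 6.53 CPM in the control. The 8 erythroid genes did not reach the counts needed for a test. Of the 12 leukocyte genes 1 rose and 3 fell (2 without replicate 1 of either group), of the 8 endothelial genes 4 rose and 1 fell, and of the 10 skeletal muscle genes 2 rose (0 or 1 without any 1 of the 4 libraries). By the same criterion, given below, 19.0% of all genes tested rose and 15.8% fell. The share of skeletal muscle genes that rose was thus near that of all genes. What part these cells had in the results was not tested.

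At day 4, 5036 of 14473 genes differed between the full window and the control (34.8%), at a Benjamini-Hochberg adjusted p under 0.05 in edgeR's quasi-likelihood test. Of these, 2752 were higher in the full window (19.0% of the genes tested) and 2284 were lower (15.8%). The increases were larger than the decreases, with a median log2 difference, full window minus control, of 0.56 among genes that rose and -0.22 among genes that fell. A change of at least 2-fold was met by 741 genes that rose (5.12%) and by 51 that fell (0.352%). Called or not, 4815 of the 14473 genes had both full-window libraries above both controls, and 4796 had both below. Groups without overlap were thus common, and where this is given below it adds little to a call. Genes picked for the largest increases and decreases had to lack overlap, so for them it was fixed by the choice. With upper-quartile scaling in place of TMM, 3203 of 4900 called genes were higher (65.4% of calls, against 54.6% with TMM), and with no filter on low counts 2503 were higher and 3005 lower.

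Direction went with level. Among the 1937 genes with a mean log2 CPM of 0 or less, 456 rose and 30 fell, and 400 of the risers did so by 2-fold or more. Among the 4900 genes between 4 and 6 on that scale, 607 rose and 1010 fell, and 20 of the risers reached 2-fold. Genes that rose by 2-fold or more had a median of 0.4795 CPM in the control, against 23.95 CPM for all genes tested there. Among the genes that passed the filter, the large increases were thus mostly in genes nearly silent in control cells. The decreases were mostly small shifts in well expressed genes. A gene silent in the other groups passed the filter on counts only where some group lifted it. Standard errors were also widest at low level, so a call there needed a large change. The excess of large increases at low level was therefore built in in part, and how far was not tested. For the same reason the counts over list members given below describe the members that passed and are no test of a list.

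The epithelial genes are described first, with a search of their promoters for the E-box that the SNAI and ZEB repressors recognise. Members of 5 lists (cadherins and catenins, tight junctions, keratins and desmosomes, the matriptase system, and epithelial regulators) that rose at day 4 numbered 30. Only 16 of them had a promoter in the RefSeq table, and Cdh1 was not among these. A motif match to CACCTG, or to CAGGTG as read on the other strand, lay within the 250 bases before the start of 9 of those 16 (56.2%). Of the 7 tested members with a promoter that did not rise, 3 held it (42.9%), as did 1887 of the 10197 tested genes with a promoter (18.5%). These shares count a gene when any of its promoters held the match. Counted promoter by promoter, it was found in 5657 of 32851 of the whole table (17.2%). Shown are 4 of the promoters with a match, for genes whose values follow, from RefSeq on build GRCm38.p6, 5′ to 3′ on the gene's strand and ending at the base before the start, with the E-box in capitals. The match in Epcam begins 187 and 19 bases before the start, in Krt8 111, in Krt18 214 and in F11r 122 bases before it.
Epcam: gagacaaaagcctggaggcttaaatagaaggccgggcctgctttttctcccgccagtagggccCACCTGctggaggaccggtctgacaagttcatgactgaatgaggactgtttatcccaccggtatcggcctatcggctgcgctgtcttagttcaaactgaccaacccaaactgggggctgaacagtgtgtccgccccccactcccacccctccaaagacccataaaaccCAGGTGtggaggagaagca
Krt8: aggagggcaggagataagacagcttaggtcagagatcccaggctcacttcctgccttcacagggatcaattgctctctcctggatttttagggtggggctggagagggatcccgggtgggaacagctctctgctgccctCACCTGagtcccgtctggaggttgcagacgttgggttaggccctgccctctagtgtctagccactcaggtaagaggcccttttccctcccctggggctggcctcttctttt
Krt18: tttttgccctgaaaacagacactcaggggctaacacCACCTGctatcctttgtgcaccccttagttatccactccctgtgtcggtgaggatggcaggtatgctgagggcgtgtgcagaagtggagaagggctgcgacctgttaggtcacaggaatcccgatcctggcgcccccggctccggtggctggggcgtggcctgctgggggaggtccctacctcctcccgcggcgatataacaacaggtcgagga
F11r: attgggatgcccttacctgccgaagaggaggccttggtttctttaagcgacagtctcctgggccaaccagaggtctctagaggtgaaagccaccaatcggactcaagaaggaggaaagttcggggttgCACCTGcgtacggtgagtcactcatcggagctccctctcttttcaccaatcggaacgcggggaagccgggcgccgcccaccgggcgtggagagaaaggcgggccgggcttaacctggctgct
Epcam lies at chr17:87635729-87635978 on the plus strand, Krt8 at chr15:102004343-102004592 on the minus strand, Krt18 at chr15:102027966-102028215 on the plus strand and F11r at chr1:171437311-171437560 on the plus strand. A match is a run of letters, and binding was not measured here. Whether these repressors had a part in the changes was not tested.

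The epithelial adhesion genes Cdh1 and Epcam and most of the tight junction genes tested rose. Cdh1 stood at 28.8 and 27.0 CPM in the full-window libraries, against 8.02 and 7.53 CPM in the control libraries. Both full-window libraries lay above both controls, at a fold of 3.59 and a log2 difference of 1.84 ± 0.083 (adjusted p = 5.2e-21). Epcam, which encodes an epithelial adhesion molecule, stood at 4.32 and 3.80 CPM in the full window, against 0.798 and 0.770 CPM in the control, without overlap, and its log2 difference was 2.36 ± 0.23 (adjusted p = 4.6e-11). Of the 12 genes tested in the list of tight junction genes and Epcam, 8 rose and 1 fell, with a median of 0.93 beside -0.005 for all genes tested, and 5 more listed genes had too few counts. Cldn3, a sealing claudin, had 14.7 and 13.1 CPM in the full window, against 3.19 and 3.24 CPM in the control. The libraries did not overlap and differed by 2.11 ± 0.11 on the log2 scale (adjusted p = 1.1e-18). F11r, which encodes the junctional adhesion molecule JAM-A, had 61.8 and 66.2 CPM in the full window, against 31.0 and 28.3 CPM in the control, again with no overlap and a log2 difference of 1.11 ± 0.058 (adjusted p = 1.0e-18). Cgn, for the tight junction plaque protein cingulin, rose less (9.59 and 9.81 CPM in the full window, against 6.00 and 5.60 CPM in the control, log2 0.74 ± 0.10). Cldn4, Ocln and Marveld3 rose by log2 differences of 2.04 ± 0.45, 1.99 ± 0.42 and 2.27 ± 0.40, at low levels. Tjp1, a scaffold gene of the junction plaque, rose by 0.33 ± 0.032.

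The cadherins as a family did not move as Cdh1 did. Of 11 cadherin and catenin genes, 3 rose, Cdh1 and Jup among them, and 3 fell (5 with DESeq2 or with no filter on low counts), Cdh2 and Cdh13 among them, with a median of -0.033. Cdh2, the N-cadherin gene of mesenchymal cells, had 41.1 and 40.5 CPM in the full window, against 52.5 and 53.5 CPM in the control. Both full-window libraries lay below both controls, by a log2 difference of -0.38 ± 0.043 (adjusted p = 2.4e-09). Jup, which encodes plakoglobin of desmosomes and adherens junctions, had 204 and 194 CPM in the full window, against 149 and 152 CPM in the control, without overlap (log2 0.40 ± 0.034, adjusted p = 9.0e-13).

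Keratin and desmosome genes had a median of 1.24, with 11 of 13 members higher and 1 lower. Krt8 and Krt18 encode the keratin pair of simple epithelia. Krt8 had 16.1 and 17.0 CPM in the full window, against 3.75 and 3.43 CPM in the control. The full-window libraries lay far above the controls, at a log2 difference of 2.20 ± 0.10 (adjusted p = 6.4e-21). Krt18 had 8.61 and 9.23 CPM in the full window, against 1.51 and 1.84 CPM in the control, also without overlap and by 2.42 ± 0.14 on the log2 scale (adjusted p = 1.7e-17). Krt19, another simple keratin gene, was already well expressed in the control and rose less, to 62.9 and 59.5 CPM in the full window, against 40.5 and 40.3 CPM in the control (log2 0.60 ± 0.057, adjusted p = 1.1e-09). Among the desmosome genes, Dsg2 for a desmoglein had 2.61 and 3.22 CPM in the full window, against 0.388 and 0.373 CPM in the control, and the log2 difference was 2.93 ± 0.30 (adjusted p = 1.9e-10). Dsc2 for a desmocollin had 42.7 and 42.6 CPM in the full window, against 20.2 and 21.0 CPM in the control, with no overlap and a log2 difference of 1.05 ± 0.056 (adjusted p = 1.1e-18). Dsp, the plaque protein desmoplakin, rose by a log2 difference of 1.11 ± 0.047, Pkp1 by 1.71 ± 0.13 and Pkp3 by 2.06 ± 0.18, and the plakophilin gene Pkp2 alone of the list fell, by a log2 difference of -0.45 ± 0.053 (adjusted p = 4.3e-09).

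All 4 genes of the matriptase system rose, 1 of them on a call that several settings did not keep. St14 encodes matriptase, a membrane protease of epithelia, and had 13.9 and 11.8 CPM in the full window, against 5.97 and 5.95 CPM in the control. The groups were apart by 1.11 ± 0.10 on the log2 scale (adjusted p = 1.4e-12). Its inhibitors Spint1 and Spint2 rose by log2 differences of 1.87 ± 0.092 and 0.89 ± 0.061, and Prss8, the prostasin gene, by 1.24 ± 0.42, at levels below 1 CPM. The call for Prss8 was lost without replicate 1 of the full window (adjusted p = 0.17) or replicate 2 of the control (adjusted p = 0.16), with DESeq2 (adjusted p = 0.13) and with no filter on low counts (adjusted p = 0.058). Of 8 epithelial regulator genes tested, 4 rose and 1 fell (0 with DESeq2 or without replicate 1 or 2 of the full window or replicate 2 of the control), and 5 further listed genes had too few counts. Ehf, an ETS factor of epithelia, had 10.6 and 11.2 CPM in the full window, against 3.69 and 3.85 CPM in the control, with no overlap (log2 1.53 ± 0.12, adjusted p = 7.8e-14). Esrp2, an epithelial splicing regulator, had 3.62 and 3.51 CPM in the full window, against 0.927 and 0.956 CPM in the control, likewise without overlap (log2 1.92 ± 0.20, adjusted p = 2.4e-10). Elf3 and Grhl2 rose by 1.98 ± 0.29 and 2.51 ± 0.69, Grhl2 at no more than 0.353 CPM and not called with limma on log2(TPM + 1) (adjusted p = 0.079).

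**Figure D1:**
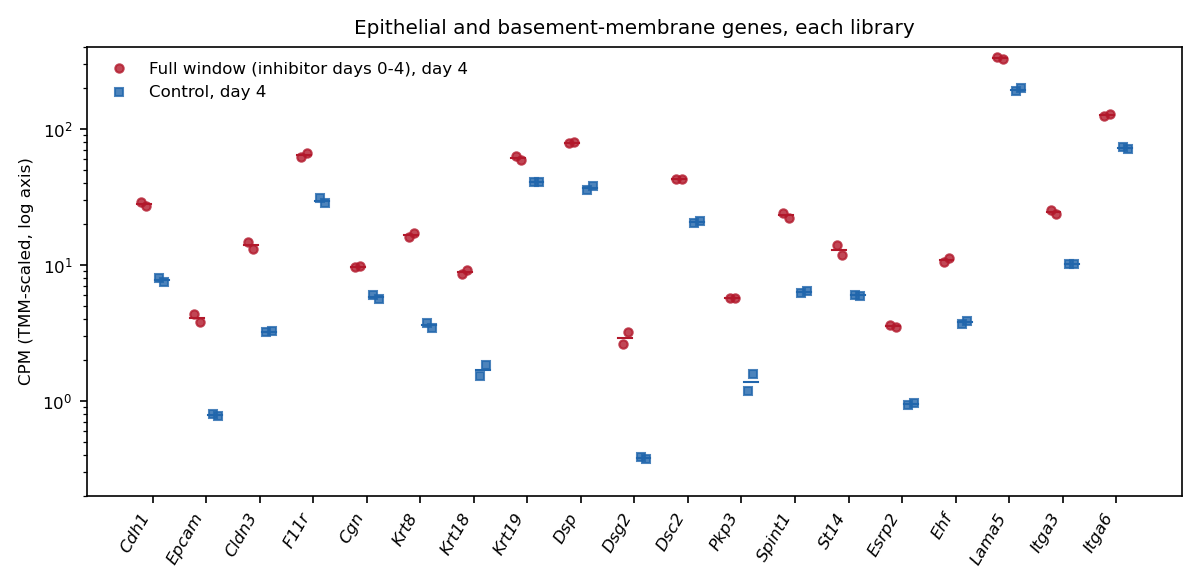
Expression of 19 epithelial and basement membrane genes in each library, as CPM on a log axis; red circles are the 2 full-window libraries at day 4, blue squares the 2 control libraries, and short lines their means. The genes shown are ones that rose, and members of the same lists that fell, such as Pkp2 and Lama1, are not drawn. Both full-window libraries thus lie above both controls throughout, from Krt19 at 62.9 and 59.5 CPM against 40.5 and 40.3 CPM to Dsg2 at 2.61 and 3.22 CPM against 0.388 and 0.373 CPM.

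Laminins are the proteins that anchor epithelial cells to their basement membrane. Of 15 laminin, integrin and basement membrane genes, 7 rose and 3 fell, with a median of 0.36. Lama5, the alpha chain of most epithelial laminins, had 338 and 325 CPM in the full window, against 191 and 198 CPM in the control, with no overlap (log2 0.77 ± 0.034, adjusted p = 2.2e-21). Lama3 and Lamb3 also rose, by 0.48 ± 0.072 and 1.13 ± 0.36, the second at no more than 0.935 CPM. The call for Lamb3 was lost without replicate 1 of the full window (adjusted p = 0.053), its replicate 2 (adjusted p = 0.059) or replicate 2 of the control (adjusted p = 0.14), and with DESeq2 on all libraries (adjusted p = 0.063). Lama1, the alpha chain of the embryonic laminin, went the other way, with 100.4 and 104 CPM in the full window, against 142 and 145 CPM in the control (log2 -0.49 ± 0.035, adjusted p = 6.9e-15). The laminin receptor genes Itga3 and Itga6 rose by 1.27 ± 0.077 and 0.82 ± 0.041. Nid1, a linker of the basement membrane, and Lamb1 fell, by log2 differences of -0.28 ± 0.030 and -0.21 ± 0.031.

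Transcription factors that hold the mesenchymal state had no common direction. Of 12 such genes, 2 rose and 5 fell, beside 19.0% and 15.8% of all genes tested. Their median of 0.045 turned negative without replicate 1 of either group. No call was made for Snai1 (13.9 and 13.7 CPM in the full window, against 12.6 and 13.9 CPM in the control) or for Snai2 (15.4 and 15.7 CPM, against 13.8 and 15.5 CPM). Twist2 fell most, to 6.42 and 7.01 CPM in the full window, against 13.9 and 13.3 CPM in the control. Its libraries did not overlap and the log2 difference was -1.02 ± 0.078 (adjusted p = 6.5e-14). Tcf4, an E-protein gene, had 87.0 and 88.7 CPM in the full window, against 131 and 131 CPM in the control, below in both libraries (log2 -0.58 ± 0.040, adjusted p = 2.7e-15). The ZEB genes split, since Zeb1 fell with a log2 difference of -0.30 ± 0.040 (adjusted p = 4.8e-08) and Zeb2 rose by 0.28 ± 0.054 (adjusted p = 5.2e-05). Hmga2 and Foxc1 fell, by log2 differences of -0.19 ± 0.037 and -0.29 ± 0.065, and Twist1 rose by 0.21 ± 0.048.

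The RNAs of the 4 induced factors were lower in the full window. The counts cannot separate the cassette's transcript from those of the endogenous genes. Pou5f1 (Oct4) had 150.3 and 143 CPM in the full window, against 179 and 188 CPM in the control. Both full-window libraries lay below both controls, as they did for Sox2, Klf4 and Myc. The log2 differences were -0.32 ± 0.036 for Pou5f1 (adjusted p = 1.5e-09), -0.30 ± 0.039 for Sox2, -0.27 ± 0.037 for Klf4 and -0.33 ± 0.034 for Myc. Among 14 pluripotency genes tested, 9 rose and 3 fell, with a median of 0.53, and 10 further listed genes, among them Zfp42, Esrrb and Utf1, had too few counts for a test. Tcfcp2l1, a transcription factor of naive pluripotent cells, had 15.0 and 16.1 CPM in the full window, against 8.50 and 8.49 CPM in the control. The groups did not overlap (log2 0.88 ± 0.085, adjusted p = 3.3e-11). Nanog reached 3.12 and 3.67 CPM in the full window, against 0.820 and 0.606 CPM in the control (log2 2.24 ± 0.23, adjusted p = 1.1e-10). Sall4, Gdf3 and Fut4 rose too, by log2 differences of 3.41 ± 0.34, 1.57 ± 0.25 and 1.22 ± 0.21, none above 3.00 CPM in any of the 4 libraries. Alpl, the alkaline phosphatase used as an early mark of reprogramming, fell to 15.5 and 14.3 CPM in the full window, against 20.6 and 20.8 CPM in the control (log2 -0.47 ± 0.076, adjusted p = 2.7e-06), and Fgf4 fell with a log2 difference of -0.40 ± 0.082. Of 7 germline genes tested 1 rose, Tdrd1, by 1.01 ± 0.26, a share below that of all genes (2 of 8 tested without replicate 2 of the control).

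Hox genes, the positional regulators of the body axis and limb that fibroblasts keep, fell broadly. Of 37 tested, 26 fell and 2 rose (1 or 0 with any 1 of the 4 libraries left out), with a median log2 difference of -0.51, and 2 more had too few counts. Each of the 4 clusters held several that fell. Hoxd12, a 5′ gene of the HoxD cluster, had 0.791 and 0.747 CPM in the full window, against 6.23 and 6.27 CPM in the control. The full-window libraries lay far below the controls, at a fold of 0.123 and a log2 difference of -3.02 ± 0.18 (adjusted p = 2.0e-17). Its neighbour Hoxd13 fell much less, to 19.9 and 23.0 CPM in the full window, against 30.9 and 30.9 CPM in the control (log2 -0.52 ± 0.064, adjusted p = 1.1e-08). In the HoxC cluster, Hoxc6 had 15.2 and 13.8 CPM in the full window, against 25.7 and 26.9 CPM in the control, without overlap (log2 -0.86 ± 0.072, adjusted p = 5.9e-13), and Hoxc8 differed by -0.64 ± 0.063. In the HoxA cluster, Hoxa11 had 12.8 and 12.4 CPM in the full window, against 21.6 and 22.8 CPM in the control, also without overlap (log2 -0.82 ± 0.074, adjusted p = 5.6e-12), and Hoxa10 differed by -0.58 ± 0.052. Hoxd8 went the other way and rose by 0.24 ± 0.090 (adjusted p = 0.033), a call lost without any 1 of the 4 libraries (adjusted p between 0.11 and 0.15), with DESeq2 (adjusted p = 0.11) and with limma on log2(TPM + 1) (adjusted p = 0.066).

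**Figure D2:**
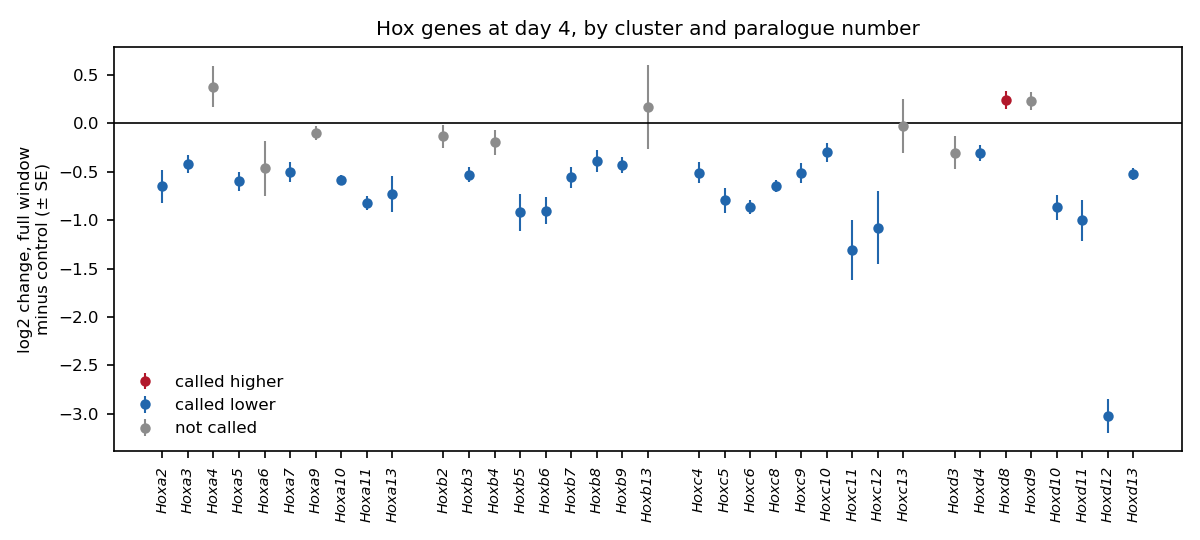
Log2 difference, full window minus control at day 4, of 36 of the 37 Hox genes tested, ordered by cluster and paralogue number; points are fitted differences, bars their standard errors, red called higher, blue called lower, grey not called. Most points lie below 0, Hoxd12 stands lowest at -3.02, and Hoxd8 is called higher at 0.24.

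Other transcription factors of mesoderm and limb fell as well, 15 of 29 tested, while 5 rose (3 without replicate 1 of the full window), with a median of -0.23. Nfix, a nuclear factor I gene, had 51.2 and 50.2 CPM in the full window, against 107 and 106 CPM in the control. Both full-window libraries lay below both controls, at a fold of 0.477 and a log2 difference of -1.07 ± 0.040 (adjusted p = 1.5e-23). Osr1 and Osr2, the odd-skipped genes of intermediate mesoderm and limb, differed by -0.95 ± 0.11 and -1.10 ± 0.13. Tbx15 had 91.2 and 91.7 CPM in the full window, against 136 and 133 CPM in the control, below in both libraries (log2 -0.56 ± 0.036, adjusted p = 4.9e-16). The limb identity genes Tbx4 and Tbx5 fell too, by log2 differences of -0.71 ± 0.079 and -0.52 ± 0.10, and Hic1 by -1.30 ± 0.086. Among those that rose were Tbx2 by 0.41 ± 0.074, Hand2 by 0.43 ± 0.085 and Runx1 by 0.28 ± 0.049. Among the Hox cofactors and their kin, Meis1 and Meis2 fell, by log2 differences of -0.32 ± 0.070 and -0.42 ± 0.049, and Meox2 by -1.17 ± 0.066, while Pknox2 rose by 0.55 ± 0.11, and the list of 11 had 3 in each direction.

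Most collagen genes of the fibroblast matrix did not fall with these regulators. Of 17 collagen genes tested, 14 rose and 1 fell, with a median of 0.30. Col15a1, for a basement membrane associated collagen, had 238 and 228 CPM in the full window, against 119 and 120.1 CPM in the control. The full-window libraries lay well above the controls, at a fold of 1.95 (log2 0.96 ± 0.034, adjusted p = 1.3e-24). Col18a1, which encodes the precursor of endostatin, had 130.1 and 125 CPM in the full window, against 66.7 and 66.7 CPM in the control, with no overlap (log2 0.93 ± 0.038, adjusted p = 1.8e-22). The chains of fibrillar and microfibrillar collagens rose by less, Col1a1 by 0.24 ± 0.035, Col5a1 by 0.29 ± 0.031, Col6a1 by 0.34 ± 0.031 and Col6a2 by 0.42 ± 0.034. Col3a1 was the collagen that fell, to 850.1 and 854 CPM in the full window, against 1026 and 1025 CPM in the control (log2 -0.27 ± 0.032, adjusted p = 5.9e-09).

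Proteoglycan and matricellular genes went both ways, 8 higher and 6 lower of 18. Spp1, the osteopontin gene, had 1207 and 1207 CPM in the full window, against 693 and 691 CPM in the control, with no overlap (log2 0.80 ± 0.030, adjusted p = 9.8e-24). Thbs1, for thrombospondin-1, had 5578 and 5562 CPM in the full window, against 3696 and 3740 CPM in the control, again apart (log2 0.58 ± 0.032, adjusted p = 2.6e-18). Small leucine-rich proteoglycan genes split, with Fmod and Prelp higher by 0.43 ± 0.032 and 0.36 ± 0.031, and Lum and Ogn lower, with log2 differences of -1.24 ± 0.11 and -0.90 ± 0.043. Lum had 3.31 and 3.53 CPM in the full window, against 8.05 and 8.16 CPM in the control, so that both full-window libraries lay well below both controls. The adhesive matrix genes Vcan and Fbln1 fell, by log2 differences of -0.44 ± 0.035 and -0.55 ± 0.040. In the list of lysyl oxidases and elastic fibre genes, 7 of 14 rose, among them Lox by 0.43 ± 0.035 and Fbn1 by 0.41 ± 0.033, and 3 fell, among them Fbln5 with a log2 difference of -0.33 ± 0.031. Of 21 matrix proteases and inhibitors, 11 rose (7 without replicate 1 of the control) and 4 fell. Mmp13, a collagenase gene, had 26.1 and 26.1 CPM in the full window, against 17.1 and 14.4 CPM in the control, without overlap (log2 0.72 ± 0.081, adjusted p = 2.3e-09), Adamts4 rose by 0.69 ± 0.065, and the membrane protease gene Mmp14 fell with a log2 difference of -0.31 ± 0.032.

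In the TGF-beta and BMP pathway, 14 of 24 genes rose and 6 fell (3 without replicate 2 of the control, with upper-quartile scaling or with limma). All 3 TGF-beta ligand genes rose. Tgfb1, a ligand gene, had 30.4 and 29.2 CPM in the full window, against 15.8 and 15.8 CPM in the control. The full-window libraries lay above both controls, at a fold of 1.88 (log2 0.91 ± 0.064, adjusted p = 5.0e-15). The ligand genes Tgfb2, Tgfb3 and Bmp4 rose by 0.52 ± 0.051, 0.18 ± 0.035 and 0.48 ± 0.052. The receptor gene Tgfbr2 had 137 and 135 CPM in the full window, against 176 and 177 CPM in the control, below in both libraries (log2 -0.38 ± 0.033, adjusted p = 1.6e-12), and Tgfbr3 fell by a log2 difference of -0.37 ± 0.054. Among targets, Id1, a BMP target, rose by 0.72 ± 0.059 and Tgfbi by 0.41 ± 0.030. Ctgf and Cyr61, matricellular targets of YAP signalling, rose by 0.71 ± 0.031 and 0.67 ± 0.031, while Yap1 and its partner Tead1 fell, with log2 differences of -0.17 ± 0.033 and -0.28 ± 0.033, and the 14 genes of that list divided into 4 up (7 with upper-quartile scaling) and 4 down.

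IGF genes fell more often than they rose, 8 against 3 of 14. Igfbp5, for an IGF binding protein, had the largest decrease among genes whose mean log2 CPM was 3 or more, at 17.0 and 17.6 CPM in the full window, against 68.4 and 69.0 CPM in the control. The full-window libraries lay far below the controls, at a fold of 0.252 (log2 -1.99 ± 0.047, adjusted p = 1.7e-30). The ligand gene Igf2 fell with a log2 difference of -1.16 ± 0.034 and the receptor genes Igf1r and Igf2r by -0.40 ± 0.069 and -0.22 ± 0.033. All 3 genes of the IGF2 mRNA-binding proteins fell. Igf2bp1 had 42.1 and 42.9 CPM in the full window, against 65.3 and 62.7 CPM in the control, without overlap (log2 -0.59 ± 0.045, adjusted p = 6.9e-14), and Igf2bp2 and Igf2bp3 differed by -0.27 ± 0.033 and -0.32 ± 0.041. The binding protein genes Igfbp2, Igfbp4 and Igfbp7 rose, by 0.81 ± 0.091, 0.64 ± 0.038 and 0.87 ± 0.053. Imprinted genes also went both ways, 8 down and 5 up of 20, beside 15.8% down and 19.0% up of all genes tested. The rises were 2 or 3 without any 1 of the 4 libraries, with DESeq2 or with limma. Peg10, a retrotransposon-derived gene of placenta, had 74.1 and 77.5 CPM in the full window, against 29.2 and 29.4 CPM in the control. Its full-window libraries lay above the controls, at a fold of 2.59 (log2 1.37 ± 0.051, adjusted p = 1.3e-23). Cdkn1c, a growth-restraining CDK inhibitor, fell to 64.5 and 62.2 CPM in the full window, against 98.5 and 98.7 CPM in the control (log2 -0.64 ± 0.042, adjusted p = 4.9e-16), and Plagl1, Nnat and Slc38a4 fell by log2 differences of -0.58 ± 0.033, -0.84 ± 0.060 and -0.92 ± 0.037.

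In the Wnt pathway 12 of 27 genes rose and 5 fell, with a median of 0.28. Tcf7, a nuclear effector, had 7.70 and 7.12 CPM in the full window, against 2.20 and 2.31 CPM in the control. Both full-window libraries lay above both controls, at a fold of 3.28 (log2 1.71 ± 0.14, adjusted p = 4.0e-13). The target gene Axin2 rose by 0.80 ± 0.12, the antagonist Dkk2 by 0.76 ± 0.067 and the secreted inhibitor Sfrp1 by 0.32 ± 0.030. The ligand gene Wnt5a and the receptor genes Fzd5 and Lrp5 fell, by log2 differences of -0.36 ± 0.046, -0.30 ± 0.043 and -0.24 ± 0.040. Of 15 Notch genes, 8 rose and 1 fell. The ligand gene Jag2 had 39.2 and 35.5 CPM in the full window, against 20.6 and 20.1 CPM in the control, with no overlap (log2 0.88 ± 0.065, adjusted p = 2.1e-14). The target genes Hes1 and Heyl rose by 0.78 ± 0.13 and 1.71 ± 0.35, and the receptor gene Notch2 fell with a log2 difference of -0.30 ± 0.040. The FGF receptor genes moved against each other. Fgfr2 had 25.7 and 26.8 CPM in the full window, against 42.9 and 43.3 CPM in the control, below in both libraries (log2 -0.71 ± 0.052, adjusted p = 1.2e-14), Fgfr1 fell with a log2 difference of -0.28 ± 0.031, and Fgfr3 rose by 0.96 ± 0.12. Retinoid genes had 3 in each direction of 15, shares near those of all genes. Dhrs3 and Cyp26b1, which lower retinal and retinoic acid, fell by log2 differences of -0.47 ± 0.061 and -0.46 ± 0.078, and the retinol dehydrogenase gene Rdh10 rose by 0.34 ± 0.060. Among 25 axon guidance genes, 10 rose and 5 fell. The ligand gene Ntn1 had 23.8 and 24.5 CPM in the full window, against 12.3 and 13.0 CPM in the control, without overlap (log2 0.93 ± 0.071, adjusted p = 4.2e-14). Sema3a rose by 1.38 ± 0.13 and Sema3f by 0.56 ± 0.053, while the receptor genes Nrp1 and Nrp2 fell with log2 differences of -0.31 ± 0.043 and -0.42 ± 0.038.

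Of 17 genes of chemokines, cytokines and prostaglandin synthases, 10 rose and 4 fell. Ccl2, a monocyte attractant, had 91.8 and 94.3 CPM in the full window, against 55.9 and 57.5 CPM in the control. The libraries were apart, by 0.72 ± 0.047 on the log2 scale (adjusted p = 2.4e-14). Il33, an alarmin gene, had 6.09 and 6.04 CPM in the full window, against 1.94 and 2.08 CPM in the control, without overlap (log2 1.59 ± 0.14, adjusted p = 3.3e-12). Cxcl10 and Il6 rose by 2.14 ± 0.27 and 1.39 ± 0.17, none of their libraries above 4.15 CPM. The pair of Cxcl12 and its receptor gene Cxcr4 fell, by log2 differences of -0.98 ± 0.033 and -1.41 ± 0.089, while the scavenger receptor gene of the same ligand, listed as Cxcr7, rose by 0.49 ± 0.074. Interferon response genes showed no common direction, with 6 up and 4 down of 20, beside 19.0% up and 15.8% down of all genes tested. Only 2 were down without replicate 2 of the full window or replicate 1 of the control. Gbp2, a guanylate-binding protein gene, had 6.79 and 6.39 CPM in the full window, against 2.31 and 1.98 CPM in the control, with a log2 difference of 1.61 ± 0.13 (adjusted p = 3.2e-13), and the RNA sensor gene Ifih1 rose by 0.84 ± 0.11, while Irf9, a subunit of the interferon response complex, fell with a log2 difference of -0.23 ± 0.065. Of 13 AP-1 and immediate early genes 10 rose and 1 fell, with a median of 0.28. Junb had 133 and 129 CPM in the full window, against 92.2 and 97.3 CPM in the control, with no overlap (log2 0.47 ± 0.041, adjusted p = 3.4e-12). Fosl2, Egr1 and Ier3 rose by 0.34 ± 0.034, 0.33 ± 0.043 and 0.49 ± 0.055, and Fosl1 fell with a log2 difference of -1.20 ± 0.28, at no more than 1.92 CPM.

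**Figure D3:**
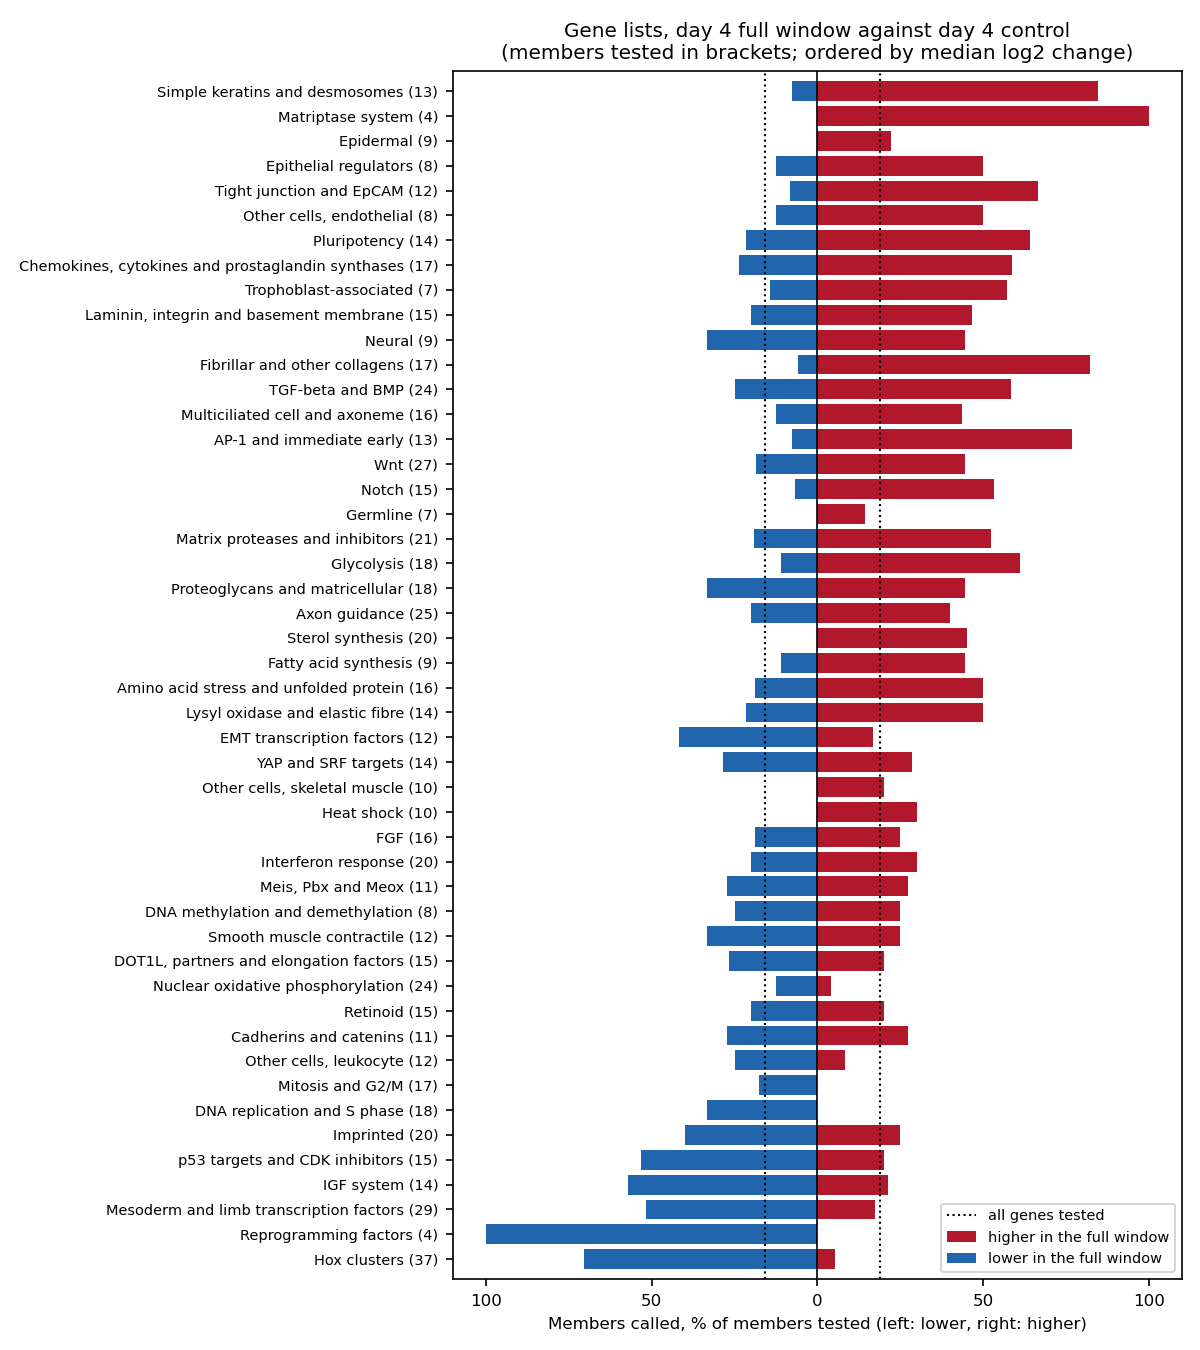
Share of the tested members of each of 48 gene lists called higher (red, right) or lower (blue, left) in the full window than in the control at day 4, ordered by the median log2 difference of the list, largest at the top; dotted lines give the shares of all genes tested, 19.0% higher and 15.8% lower. Keratins and desmosomes stand at the top with 11 of 13 higher, and Hox genes at the bottom with 26 of 37 lower.

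Most growth and metabolic genes were not called or changed by small amounts. No gene of DNA replication and S phase rose and 6 of 18 fell (10 with no filter on low counts), with a median of -0.085, and for mitosis 0 of 17 rose and 3 fell (1 without replicate 1 of the control, 8 with no filter on low counts), a share near that of all genes, with a median of -0.074. Mcm6, a subunit of the replicative helicase, had 166 and 173 CPM in the full window, against 205 and 204 CPM in the control. Its libraries did not overlap (log2 -0.27 ± 0.032, adjusted p = 5.1e-09). Among p53 targets and CDK inhibitors, 8 of 15 fell and 3 rose. Cdkn1b, the p27 gene, had 38.0 and 39.5 CPM in the full window, against 53.6 and 50.9 CPM in the control, below in both libraries (log2 -0.43 ± 0.049, adjusted p = 1.8e-09). Cdkn1a fell by only -0.15 ± 0.036 on the log2 scale, Pmaip1 rose by 0.66 ± 0.070 and Cdkn2b by 0.35 ± 0.047. Of 18 glycolysis genes 11 rose and 2 fell, with a median of 0.10, Slc2a1, the glucose transporter gene, rising by 0.36 ± 0.037 and Eno2 by 0.55 ± 0.053, while Aldoc fell with a log2 difference of -0.52 ± 0.049. Of 24 nuclear genes of oxidative phosphorylation 1 rose and 3 fell, shares below those of all genes, and 2 in all were called without replicate 2 of the full window or replicate 1 of the control. Of 10 heat shock genes 3 rose, beside 19.0% of all genes tested, and the median of the list was 0.037. Hspb1 rose by 0.67 ± 0.040. Of 16 genes of amino acid stress and the unfolded protein response 8 rose and 3 fell, with log2 differences between -0.36 and 0.54.

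Dot1l itself rose in the presence of the inhibitor. It had 95.5 and 88.8 CPM in the full window, against 77.1 and 77.6 CPM in the control. The libraries did not overlap, and the log2 difference was 0.25 ± 0.040 (adjusted p = 2.9e-06). SGC0946 acts on the enzyme, so the level of its RNA does not check the labels. Among the 15 genes of DOT1L, its partners and elongation factors 3 rose and 4 fell, beside 19.0% and 15.8% of all genes tested. The share that rose was thus near that of all genes. There were 4 calls in all without replicate 1 of the full window or either control. No decrease was called with upper-quartile scaling or with limma on log2(TPM + 1). The elongation factor gene Aff4 rose by 0.21 ± 0.036.

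Several genes with large changes have not been described yet. Their choice required that the groups did not overlap. Ret, a receptor tyrosine kinase gene of neural crest and kidney, had 38.8 and 41.8 CPM in the full window, against 13.9 and 13.3 CPM in the control. The full-window libraries stood above both controls, at a fold of 2.97 (log2 1.57 ± 0.071, adjusted p = 5.2e-21). Kif1a, a motor of synaptic vesicle precursors, had 112 and 108 CPM in the full window, against 37.9 and 37.1 CPM in the control, again apart (log2 1.55 ± 0.051, adjusted p = 1.9e-22). Apoe, which encodes apolipoprotein E, had 75.5 and 69.8 CPM in the full window, against 26.5 and 26.9 CPM in the control (log2 1.44 ± 0.062, adjusted p = 4.5e-19). Among the 15 largest increases at a mean log2 CPM of 3 or more were also Col28a1, Gprc5c, Rgs8, Bcam, C530028O21Rik, Bex1, Dpp4 and Atp2a3, with log2 differences between 1.42 and 1.59. Among the decreases was the vascular growth factor gene listed as Figf. It had 24.1 and 23.4 CPM in the full window, against 46.7 and 46.4 CPM in the control (log2 -0.97 ± 0.053, adjusted p = 2.8e-18). Ggh, the gamma-glutamyl hydrolase gene, and the matricellular gene listed as Nov fell by log2 differences of -0.94 ± 0.054 and -0.91 ± 0.070, and Pcdhgc4, a clustered protocadherin gene, by -1.11 ± 0.10.

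Markers of other lineages were counted in the same libraries. Of 7 trophoblast-associated genes tested 4 rose and 1 fell, and their summed level was 106.3 and 106.7 CPM in the full window, against 95.7 and 99.3 CPM in the control. Tcfap2c, a factor of trophoblast and early epithelium, had 8.80 and 10.1 CPM in the full window, against 1.85 and 2.21 CPM in the control. The full-window libraries lay above both controls, at a fold of 4.65 (log2 2.22 ± 0.16, adjusted p = 8.0e-15). Of 9 epidermal genes tested 2 rose, a share near the background, among them Trp63 by 1.09 ± 0.15, and the stratified keratin genes Krt5, Krt15 and Krt17 had too few counts for a test. Of 16 multiciliated cell genes 7 rose and 2 fell, 4 in all without replicate 1 of the full window and 5 without replicate 2 of the control, and with DESeq2 3 rose. Foxj1, the regulator of motile cilia, had 15.8 and 15.7 CPM in the full window, against 4.51 and 4.36 CPM in the control, well apart (log2 1.82 ± 0.10, adjusted p = 1.0e-17). Dnahc5, an axonemal dynein gene at low level, fell by a log2 difference of -2.72 ± 0.62 (adjusted p = 5.7e-04), a call lost with limma on log2(TPM + 1), where the adjusted p was 0.45 and neither decrease of the list was called. In bulk RNA, fewer cells of a type and less RNA per cell cannot be told apart, here and for every gene above.

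The day 2 groups show whether the inhibitor had the same effect 2 days earlier. The effect at day 4 minus the effect at day 2 was positive for 812 genes (5.61% of those tested) and negative for 517 (3.57%), in a contrast in which no library is used on both sides. With no filter on low counts the balance turned, to 722 positive and 807 negative. Without replicate 2 of the day 4 control the total was 880, against 1329 with all libraries. Cdh1 had 7.12 and 7.65 CPM with the inhibitor at day 2, against 3.13 and 2.92 CPM in the day 2 control, and 0.0253 and 0.107 CPM in untreated fibroblasts. Its log2 difference was 1.84 at day 4, against 1.29 at day 2, and the effects differed by 0.55 ± 0.14 (adjusted p = 0.0082). Krt8 had 4.23 and 4.47 CPM with the inhibitor at day 2, against 1.69 and 1.95 CPM in the day 2 control, and its effects differed by 0.95 ± 0.18 (adjusted p = 1.9e-04). Spp1 had 1141 and 1138 CPM with the inhibitor at day 2, against 1155 and 1142 CPM in the day 2 control. The arms were not called apart at day 2, whereas at day 4 the control stood lower and the full window did not, and the effects differed by 0.81 ± 0.042 (adjusted p = 3.9e-18). Mcam, for a cell adhesion molecule of the immunoglobulin family, had 21.1 and 19.7 CPM with the inhibitor at day 2, against 20.6 and 22.3 CPM in the day 2 control. At day 4 it had 50.7 and 48.8 CPM in the full window, against 24.6 and 24.0 CPM in the control, and the effects differed by 1.11 ± 0.075 (adjusted p = 2.0e-14).

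Some of the largest decreases at day 4 had positive values at day 2. Igfbp5 had 9.24 and 9.10 CPM with the inhibitor at day 2, against 6.87 and 7.64 CPM in the day 2 control (log2 0.34). At day 4 both arms stood higher, the control by far the more, and the effects differed by -2.32 ± 0.089 (adjusted p = 2.8e-22). Abi3bp had 13.2 and 14.1 CPM with the inhibitor at day 2, against 11.2 and 9.84 CPM in the day 2 control, and the effects differed by -1.87 ± 0.10. Lum had a log2 difference of -1.24 at day 4, against 0.35 at day 2 (adjusted p = 2.1e-09 for the difference). Mest had -0.37 at day 4, against 0.40 at day 2 (adjusted p = 1.6e-15), and Cdkn1c -0.64 at day 4, against 0.54 at day 2 (adjusted p = 1.3e-11). Of 37 Hox genes, 9 had a more negative effect at day 4 than at day 2 and 1 a more positive one. Hoxd12 had a log2 difference of -3.02 at day 4, against -0.96 at day 2, and the effects differed by -2.06 ± 0.28 (adjusted p = 7.4e-07), while for Hoxa10, at -0.58 at day 4, against -0.49 at day 2, the difference between days was not called (adjusted p = 0.63). For the 4 factors the difference between days was not called either, with Pou5f1 at -0.32 at day 4, against -0.26 at day 2.

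**Figure D4:**
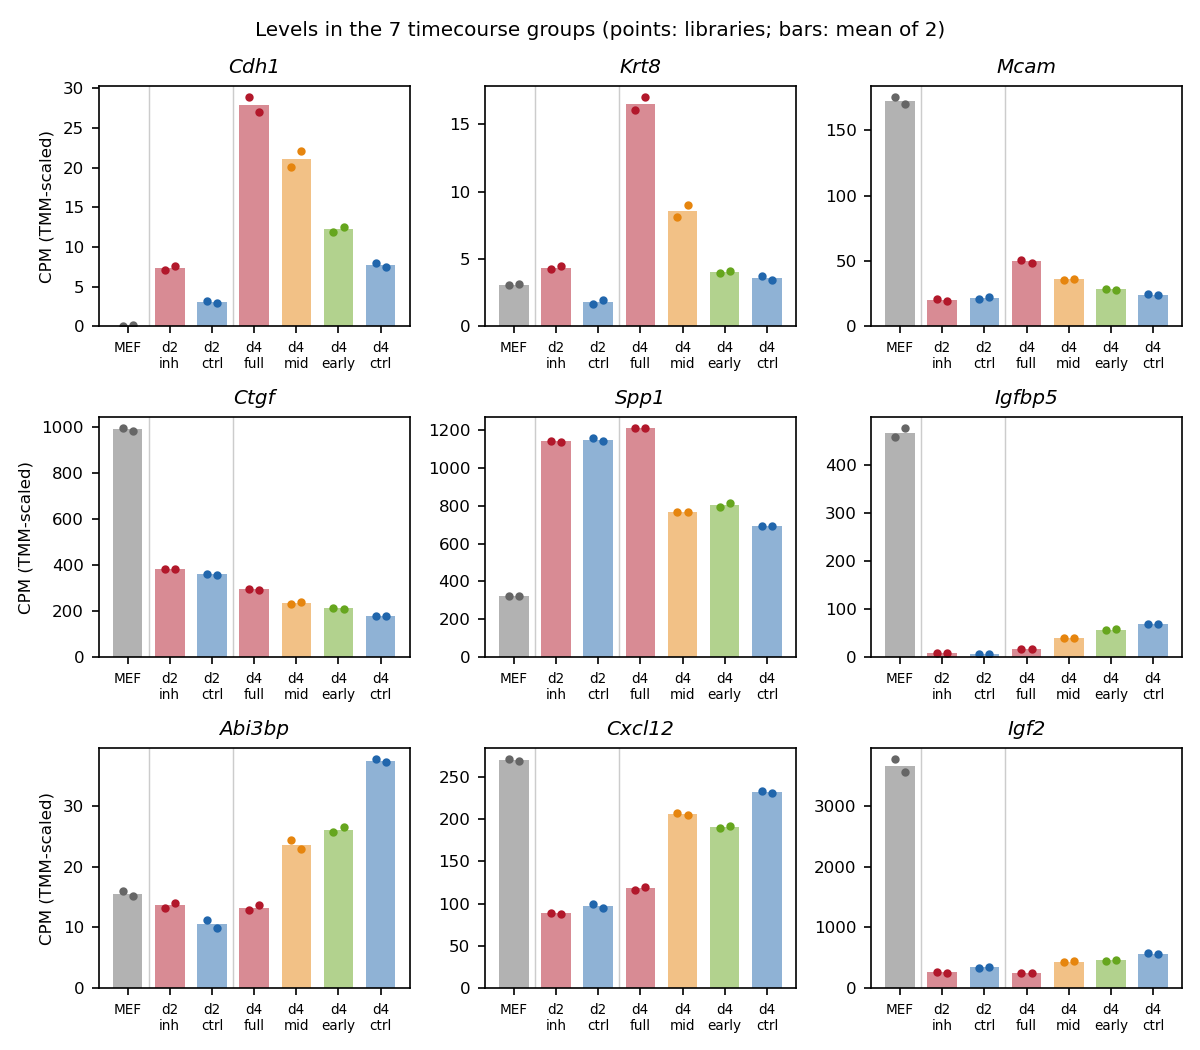
Levels of 9 genes in the 7 groups of the timecourse, as CPM on linear axes from 0; points are the 2 libraries of a group, bars their mean, and grey lines separate untreated fibroblasts, day 2 and day 4. Cdh1 and Krt8 stand highest in the full window, Spp1 is lower at day 4 than at day 2 in the control and the partial windows but not in the full window, and Igfbp5 and Abi3bp are highest in the day 4 control among the doxycycline groups.

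The full window was then set against the partial windows. Against the early window, 2409 genes were higher in the full window (16.6%) and 2077 lower (14.4%), a balance that turned with no filter on low counts (2214 higher and 2605 lower) and without the untreated fibroblasts (2530 higher and 2547 lower). Against the mid window, 1679 were higher (11.6%) and 1231 lower (8.51%), and without replicate 2 of the full window the total of 2910 became 1840. Cdh1, Krt8 and Lama5 were each highest in the full window. Cdh1 had 28.8 and 27.0 CPM in the full window, 11.9 and 12.6 CPM in the early window and 20.0 and 22.1 CPM in the mid window, so the mid window came closer, and the test against it gave a log2 difference of 0.41 (adjusted p = 8.5e-05). Krt8 had 16.1 and 17.0 CPM in the full window, 3.98 and 4.08 CPM in the early window and 8.10 and 9.00 CPM in the mid window. Its early-window libraries lay close to the control, and the full window exceeded the mid window by 0.95 on the log2 scale (adjusted p = 1.1e-10). Lama5 had 338 and 325 CPM in the full window, 229.9 and 226 CPM in the early window and 225 and 235 CPM in the mid window, with a log2 difference from the mid window of 0.53 (adjusted p = 1.8e-15).

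The 4 day 4 groups form a layout of inhibitor on days 0 to 2 and inhibitor on days 2 to 4, so that the full window can be tested against the sum of the separate windows on the log2 scale. This interaction was positive for 847 genes (5.85%) and negative for 608 (4.20%), with a total of 861 without replicate 1 of the control and 792 without its replicate 2, against 1455 with all libraries. For Cdh1 and Epcam it missed the threshold, at -0.24 ± 0.12 (adjusted p = 0.19) and 0.15 ± 0.34 (adjusted p = 0.85), which does not show that their effects were additive. Keratin and desmosome genes included 6 of 13 with a positive interaction and none negative. Krt8, Krt18, Krt19 and Dsp exceeded the sum of the windows by 0.78 ± 0.15, 1.09 ± 0.22, 0.72 ± 0.083 and 0.64 ± 0.068 on the log2 scale. Of the 15 laminin and integrin genes 9 had a positive interaction, Itga3 at 0.79 ± 0.11 (adjusted p = 3.2e-06). The AP-1 and immediate early genes leaned the other way, with 6 of 13 negative and 1 positive, the immediate early gene Dusp1 at -0.50 ± 0.086.

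Lipid synthesis genes had mostly positive interactions. Of 20 sterol synthesis genes tested 18 had a positive interaction and none a negative one, and all 9 fatty acid synthesis genes were positive, beside 5.85% positive among all genes. The SREBP transcription factors are known to drive both pathways. The sterol genes had a median log2 difference from the control of 0.086 in the full window, -0.082 in the early window and -0.22 in the mid window. Fdps, for farnesyl diphosphate synthase of the sterol pathway, had 148 and 149 CPM in the full window, 119.9 and 118 CPM in the early window, 121 and 119.6 CPM in the mid window and 140.5 and 144 CPM in the control. Both partial windows lay below the control and the full window above it, although the full window was not called against the control (adjusted p = 0.12, or 0.019 with upper-quartile scaling), and the interaction was 0.56 ± 0.047 (adjusted p = 2.3e-11). Scd1, a fatty acid desaturase gene, had 293 and 292 CPM in the full window, 223 and 226 CPM in the early window, 210.2 and 214 CPM in the mid window and 258 and 263 CPM in the control. The full window was again highest, with an interaction of 0.68 ± 0.045 (adjusted p = 2.7e-14). Scd2, with 1313 and 1318 CPM in the full window and 1088 and 1082 CPM in the control, had an interaction of 0.65 ± 0.043 (adjusted p = 2.7e-14). These differences are small beside those of the epithelial genes. All genes of a list were read in the same libraries, so their positive values are not independent of each other, and the 3 inhibitor windows share 1 control. The mid-window libraries differed from each other beyond counting noise more than those of any other group.

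**Figure D5:**
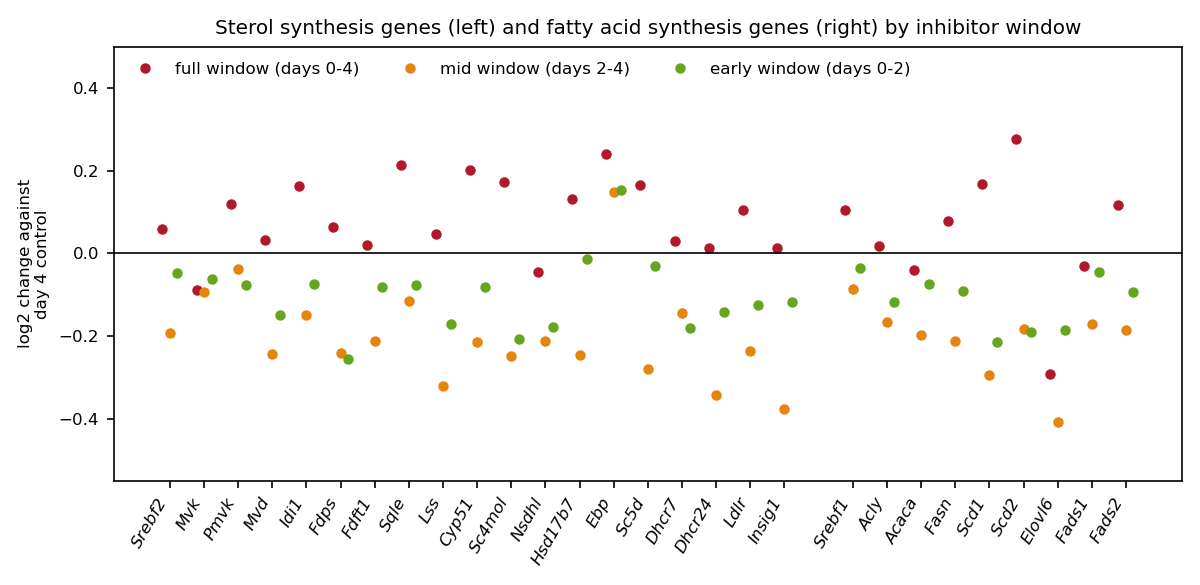
Log2 difference from the day 4 control of 19 of the 20 sterol synthesis genes tested (left) and 9 fatty acid synthesis genes (right) in the full window (red), mid window (orange) and early window (green); points are fitted differences and no error bars are drawn. Nearly all red points lie above the orange and green points of the same gene, as for Fdps at 0.065 in the full window.

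Among negative interactions the smallest p was that of Crym, a thyroid hormone binding protein gene. It had 239.5 and 234 CPM in the full window, 355 and 338 CPM in the early window, 281 and 289.9 CPM in the mid window and 222 and 225 CPM in the control. Both partial windows lay above the full window, and the interaction was -0.90 ± 0.046 (adjusted p = 1.0e-17). Postn, the periostin gene, had 105 and 111 CPM in the full window, 107 and 108 CPM in the early window, 143 and 137 CPM in the mid window and 91.0 and 87.5 CPM in the control. The mid window was highest, and the interaction was -0.63 ± 0.050 (adjusted p = 6.2e-12). Cxcl12 had 116 and 119.8 CPM in the full window, 189 and 192 CPM in the early window, 208 and 205 CPM in the mid window and 233 and 231 CPM in the control. The full window lay below both partial windows, and the interaction was -0.52 ± 0.046 (adjusted p = 8.9e-11).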

How the data were processed

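Polyadenylated RNA was sequenced paired-end from the timecourse libraries, with human 293T RNA added per the labels; no human gene is in the tables used here, and changes are therefore relative within each library. The authors' tools, per the submitters' processing notes, were RSEM 1.2.4, Bowtie and Trimmomatic, with builds mm9 and hg18, whose roles are not given in the sources used here. The deposited expected counts are RSEM's estimates per gene, not normalized, and reads shared by near-identical genes are divided by its model. The deposited TPM values, scaled by the authors' RSEM run for length and depth, served in 1 alternative.

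Expected counts were rounded and fitted with edgeR 4.0.16 (R 4.3.3; TMM, filterByExpr with a minimum count of 10 and total of 15, robust quasi-likelihood fit) over the 14 timecourse libraries, 1 coefficient per group, with 7 residual degrees of freedom. The estimate of spread was also shared between genes, with a median of 32.1 prior degrees of freedom, so the p-values rest on more than the 7. Standard errors are the log2 difference divided by the root of F. Calls needed p under 0.05 after Benjamini-Hochberg adjustment over all 14473 genes tested. An exact permutation test of 2 against 2 libraries cannot go below p = 0.333. The biological coefficient of variation was 2.95%, and replicates differed by more than counting noise, so none was a copy. The chi-square per degree of freedom between replicates was 12.27 in the mid window and 3.46 in the early window. It was 3.92 in the full window and 1.94 in the day 4 control. No alternative left out 1 library of the mid or early window, on which the windows' interaction also rests.

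Members and the 49 lists (801 genes, 718 tested, described by counts and medians, without a test) were chosen with earlier results of these data known. The text names the 15 genes that rose most and the 15 that fell most (log2 CPM averaging 3 or more, groups not overlapping), up to 6 per list and direction by p with its first 3 members, all members of lists of up to 18, 8 per direction in the tests between days and between windows, and Cdh1, Dot1l and the 4 factors. Of the 801 genes, 793 were in the tables. Some genes that this rule selects are not reported here. Promoters were searched in the 250 bases before the start. The procedure was tested on simulated data. Alternatives were DESeq2 1.42.0, limma 3.58.1 on log2(TPM + 1), other filters, scaling and libraries, and a replicate block. Older symbols such as Ctgf, Cyr61, Nov and Sc4mol are printed as in the files.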

Additional observations from a re-analysis of the deposited data

Results flagged for a closer look

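The effect of the inhibitor at day 4 differed from that at day 2 in a direct test, and genes among the 8 with the smallest p in each direction are given here as log2 differences between the effects, with standard errors. The effect was more positive at day 4 for Spp1 at 0.81 ± 0.042, Sulf1 at 0.66 ± 0.043, Mcam at 1.11 ± 0.075, Ctgf at 0.63 ± 0.043, Ccdc80 at 0.60 ± 0.043 and Atp2b4 at 0.67 ± 0.051. It was more negative at day 4 for Igfbp5 at -2.32 ± 0.089, Abi3bp at -1.87 ± 0.10, Cxcl12 at -0.84 ± 0.048, Igf2 at -0.76 ± 0.047, Mest at -0.77 ± 0.048, Dpy19l1 at -0.72 ± 0.048, Bcat1 at -0.76 ± 0.055 and Ptn at -0.81 ± 0.061. The largest adjusted p of these 14 genes was 6.1e-13.

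The effect of inhibitor on days 2 to 4 also differed between cells that had and had not received it on days 0 to 2. This interaction on the log2 scale was positive for Scd2 at 0.65 ± 0.043, Scd1 at 0.68 ± 0.045, Myof at 0.58 ± 0.045, Cav1 at 0.58 ± 0.047, Fdps at 0.56 ± 0.047, Tm4sf1 at 0.56 ± 0.048, Sc4mol at 0.63 ± 0.055 and Flnc at 0.67 ± 0.056. It was negative for Crym at -0.90 ± 0.046, Igfbp5 at -0.95 ± 0.065, Postn at -0.63 ± 0.050, Igfbp3 at -0.51 ± 0.043, Cxcl12 at -0.52 ± 0.046, Clec3b at -0.73 ± 0.064, Matn4 at -1.26 ± 0.12 and Plagl1 at -0.48 ± 0.047. The largest adjusted p of these 16 genes was 7.2e-10. Matn4 stood lowest in level among them, at 7.43 and 7.49 CPM in the full window, against 13.7 and 11.9 CPM in the control.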

How the results depend on the processing

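The main count of 5036 genes stayed within 1.5 times under every alternative: 4195 with DESeq2, 5401 with the 4 libraries alone, 5587 without the untreated fibroblasts, 5508 with no filter on low counts (2503 higher and 3005 lower), 4758 with a filter of 1 CPM in 2 libraries, 4900 with upper-quartile scaling and 4360 with limma on log2(TPM + 1), of which 61.3% were higher. Leaving out 1 of the 4 libraries gave between 3636 and 4200. The counts that moved further did so when 1 library was left out, and the cause was not tested. The comparison of effects between days gave between 880 and 1135 calls, against 1329 with all libraries, the windows' interaction between 792 and 1224, against 1455, and the full against the mid window between 1840 and 2731, against 2910. With limma on TPM the higher share of calls was 84.0% for the windows' interaction, 71.5% against the early window and 77.4% against the mid window, and DESeq2 gave 69.2% for the interaction; with upper-quartile scaling the share against the early window was 64.5%, beside 53.7% with TMM. No setting moved the median of all genes by more than 0.1 on the log2 scale. Of 48 lists, 40 kept their number of calls within 1.5 times in all 12 alternatives, and the medians of 10 lists, all near 0, changed sign in at least 1. Snai1, not called, had log2 differences between -0.012 and 0.12 with 1 library left out. Same-numbered libraries did not deviate together in a common direction, with correlations between -0.545 and 0.206 over the pairs of groups. The value of -0.545 was that of the day 2 inhibitor and mid-window groups, whose same-numbered libraries deviated in opposite directions. All other pairs lay between -0.243 and 0.206, and the cause of the outlying pair was not tested. The labels do not say whether the numbers pair the samples, and these correlations cannot show that they do not. With a replicate block the counts were 5043 for the full window against control, 1327 between days, 1499 for the interaction, 4505 against the early window and 2932 against the mid window. Depth limits the genes below about 1 CPM, where standard errors are widest.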

Other observations

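Other lists held genes not described above. Among 8 genes of DNA methylation and demethylation, 2 rose and 2 fell at day 4, beside 19.0% and 15.8% of all genes tested. Dnmt1, the maintenance methyltransferase gene, had 182 and 173 CPM in the full window, against 216 and 214 CPM in the control, without overlap (log2 -0.28 ± 0.032, adjusted p = 3.6e-09). Dnmt3a, a de novo methyltransferase gene, rose by 0.14 ± 0.036 and the glycosylase gene Tdg by 0.23 ± 0.040, while the dioxygenase gene Tet2 fell with a log2 difference of -0.32 ± 0.046. Of 9 neural genes, 4 rose (2 with DESeq2 or without replicate 1 of the full window or of the control) and 3 fell. Gap43, a growth cone gene, had 2.83 and 2.82 CPM in the full window, against 6.26 and 6.76 CPM in the control, below in both libraries (log2 -1.20 ± 0.11, adjusted p = 3.9e-12). Nes, for the intermediate filament nestin, and Stmn2, for a tubulin-binding protein, rose by 0.36 ± 0.035 and 0.53 ± 0.040, and the transcription factor gene Sox11 fell with a log2 difference of -0.42 ± 0.041.

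Of 12 smooth muscle contractile genes, 3 rose and 4 fell (2 without replicate 2 of the full window or replicate 1 of the control). Of all genes tested 19.0% rose and 15.8% fell, and the median of the list was -0.004. Actg2, a smooth muscle actin gene, had 113 and 107 CPM in the full window, against 134 and 134 CPM in the control, below in both libraries (log2 -0.29 ± 0.035, adjusted p = 1.1e-08), and Tagln, for transgelin, fell with a log2 difference of -0.22 ± 0.034. Des, the desmin gene, rose by 0.86 ± 0.14, at no more than 4.68 CPM. Of 16 FGF genes, 4 rose (2 without replicate 2 of the full window or replicate 1 of the control) and 3 fell, shares near those of all genes.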
